A study of Mus musculus with 18 samples.

Results

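The small heat shock protein genes Hspb1, Cryab, Hspb6 and Hspb8, the co-chaperone gene Bag3 and the chaperone genes Hspa1a, Hspa1b, Dnajb1 and Hsph1 were followed across all 18 libraries of a study that models mesial temporal lobe epilepsy in mice. These 9 genes, of 55291 gene symbols in the files, were selected by name as a family because of Hspb1, whose IP level in the KA group against the AAV control group and whose ratio of IP to input were among the highest of the series. That comparison therefore chose the genes, and its values and counts are given as a description, with no p-value of a member.

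All mice were wild-type C57BL/6J males that received, at 6 weeks of age, an AAV carrying EGFP-Rpl10a under the astrocyte promoter GfaABC1D in the right CA3 region, so the controls carried the virus too. The AAV control group received only the virus and its RNA was collected 2 weeks later. The KA group received kainic acid (KA), a glutamate receptor agonist, in the right dentate gyrus 2 weeks after the AAV, with RNA collected 14 days after KA, and the PBS group received PBS after the AAV. Each group had 3 samples, each pooled from the right hippocampi of 3 to 4 mice, and each sample gave 1 IP library, of RNA pulled down with EGFP-tagged ribosomes, and 1 input library of the same homogenate. The KA group was therefore 2 weeks older relative to the AAV injection than the AAV control group at collection, and the time of collection of the PBS group was not given in the sources used here.

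Small heat shock proteins bind unfolding proteins without using ATP and hold them in a state that can be refolded or removed. HSP70 proteins such as those encoded by Hspa1a and Hspa1b then refold clients with ATP, helped by HSP40 proteins such as DNAJB1, which deliver clients, and by HSP110 proteins such as HSPH1, which release ADP from HSP70. BAG3 links HSP70 with HSPB8 and directs clients to autophagy. Many of these genes are induced through heat shock elements, repeats of the unit GAA in alternating orientation, by the transcription factor HSF1. In the brain, Cryab is known as an abundant transcript of oligodendrocytes and is also found in reactive astrocytes, and Hspb1 is known from reactive astrocytes and blood vessels.

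The promoters of 4 members with a match to the heat shock unit upstream of the start site are shown, because the family is known in large part for this element. RefSeq promoter windows (GRCm38.p6, from 250 bases before to 50 bases after a start site) were found for 8 of the 9 members. GAANNTTC or TTCNNGAA, searched on both strands (each reads the same on the other strand), occurred in a window of 7 members, all but Dnajb1, and in 4946 of all 32851 windows (15.1%). A match of 3 alternating units, which contains both of those forms, occurred in Hsph1 alone among the members and in 0.603% of all windows. In the stretches upstream of the start site, written 5′ to 3′ on the strand of the gene, capitals mark the fixed letters of each match:
Hspb1, chr5:135887769-135887918, plus strand: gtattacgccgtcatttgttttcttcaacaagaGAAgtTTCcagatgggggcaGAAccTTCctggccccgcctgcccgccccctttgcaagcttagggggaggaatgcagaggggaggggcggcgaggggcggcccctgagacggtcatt
Hspb6, chr7:30553151-30553267, plus strand: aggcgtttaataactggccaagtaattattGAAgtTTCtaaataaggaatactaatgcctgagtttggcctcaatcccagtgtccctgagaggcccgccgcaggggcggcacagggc
Hspa1a, chr17:34972157-34972306, minus strand: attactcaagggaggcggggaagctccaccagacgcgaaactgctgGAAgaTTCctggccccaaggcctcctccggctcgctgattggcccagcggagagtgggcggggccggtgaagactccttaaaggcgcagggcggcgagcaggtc
Hspa1b, chr17:34959239-34959388, minus strand: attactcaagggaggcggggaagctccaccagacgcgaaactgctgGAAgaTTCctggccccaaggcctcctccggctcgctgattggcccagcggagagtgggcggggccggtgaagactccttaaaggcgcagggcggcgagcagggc

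The Hspb1 stretch held 2 matches, starting 117 and 97 bases before the start site. The Hspb6 match lay 120 bases before the second of its annotated starts. The stretch shown for Hspb6 leaves out the 33 bases next to that start, which lie in an annotated exon. The Hspa1a and Hspa1b stretches were identical at 149 of 150 bases, each with a match 104 bases before the start. In Hsph1 the match nearest upstream, TTCTCGAA, began 54 bases before a start site, and in Bag3 and Hspb8 the match began 42 and 2 bases after it. A match is a string of letters, not a measured site of binding.

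On GRCm38 (GENCODE M21), Hspb1 lies on chromosome 5 at 135887919 to 135889563, Hspb8 at 116408491 to 116422864 and Hsph1 at 149614287 to 149636376 of the same chromosome. Cryab lies on chromosome 9 at 50751325 to 50756636, Hspb6 on chromosome 7 at 30552178 to 30555443, Bag3 on chromosome 7 at 128523616 to 128546981 and Dnajb1 on chromosome 8 at 83608193 to 83612653. Hspa1a, at 34969190 to 34972156, and Hspa1b, at 34956436 to 34959238, are neighbours on chromosome 17 and share 47.1% and 49.9% of their 100-base transcript windows, so reads could be split between them. Cryab overlaps Hspb2, Hspb6 overlaps Lin37 and Proser3, and Hspa1a overlaps Gm20481, each on the opposite strand. No strand setting of the counting was given in the sources used here. Gm20481 had 0 counts in every library. Hspb2 had at most 24 counts in any library, against at least 737 for Cryab, while Lin37 had mean IP levels of 15.6 FPKM in AAV control, 16.6 FPKM in PBS and 15.1 FPKM in KA and so was near level where Hspb6 differed.

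Library totals ranged from 7991681 to 16032180 counts. In the AAV control group all 10 astrocyte markers of a list were higher in IP than in input and 9 of 10 neuron markers lower, and the same counts were found in the PBS group. In KA IP, 4 of 10 astrocyte markers were lower than in PBS IP, against 9.34% of the 9847 genes tested that were called lower, and the summed level of the list was 2841 to 3023 FPKM in KA IP and 5783 to 10018 FPKM in PBS IP. All 5 reactive astrocyte markers tested were higher in KA IP than in PBS IP, with a median log2 change of 4.14, and the list summed to 4683 to 4929 FPKM in KA IP and 608 to 1255 FPKM in the 6 control IP libraries. KA and AAV control samples #1 and #2 were sequenced in run 1, samples #3 in run 2 and all PBS samples in run 3, so for PBS the sequencing run and the group cannot be told apart. AAV control #3 stood apart from #1 and #2 in several members and in oligodendrocyte markers (1194 FPKM summed in IP, against 277 and 368), and values without it are given where leaving it out changed a call. In bulk RNA, more cells of a type and more RNA per cell cannot be told apart.

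**Figure D1:**
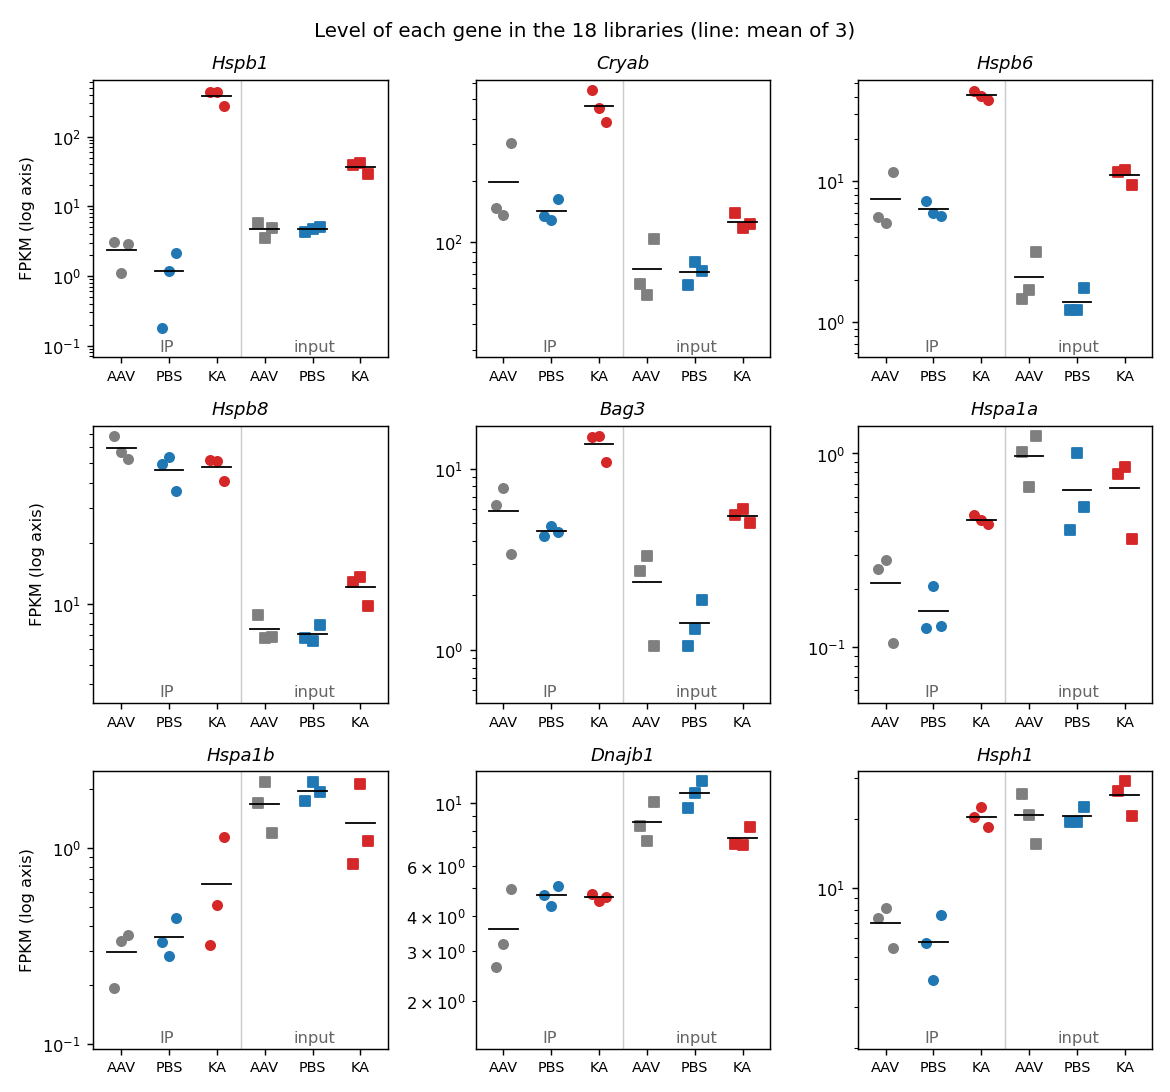
FPKM (log axis) of the 9 genes in each of the 18 libraries, with IP libraries as circles at the left and input libraries as squares at the right of each panel, and lines at the mean of 3. Hspb1 sits between 273 and 443 FPKM in the 3 KA IP libraries and at or under 3.03 FPKM in every other IP library, while Hspb8 and Dnajb1 in KA IP overlap PBS IP.

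Hspb1, which encodes HSP27, had few counts in control IP and was among the most abundant transcripts of KA IP. Its FPKM (fragments scaled to transcript length and library size) in IP was 3.03, 1.12 and 2.88 in AAV control #1 to #3 and 0.182, 1.19 and 2.12 in PBS, from 11 to 38 and 3 to 23 counts. In KA IP it was 443, 440.1 and 273 FPKM, from 3080 to 5087 counts, and ranked 136th by mean level among 28196 genes detected there, against 9046th in AAV control IP. The lowest KA IP library was 89.8 times the highest AAV control IP library and 128 times the highest PBS IP library. The ratio of means was 165 against AAV control and 331 against PBS, where the denominator rests on 40 counts in all. PBS IP #1, with 3 counts, kept Hspb1 out of the tests that used PBS IP, since a gene needed more than 1 FPKM in every library compared.

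In the input libraries of whole hippocampus, which the selection did not compare between groups, Hspb1 rose too. Input levels were 38.9, 42.2 and 29.2 FPKM in KA, 5.83, 3.56 and 4.93 FPKM in AAV control and 4.34, 4.69 and 5.05 FPKM in PBS. Every KA input library was above every control input library, and the controls overlapped each other. The log2 fold change was 2.94 ± 0.22 (SE, adjusted p = 0.00064) against AAV control and 2.95 ± 0.15 (adjusted p = 3.02e-07) against PBS, by edgeR's quasi-likelihood test with Benjamini-Hochberg adjustment over all genes tested. Within run 1 the ratio of KA to AAV control input means was 8.64 and within run 2, with 1 library each, it was 5.92. Endothelial markers, of a cell type known to hold Hspb1, summed to 71.0 to 94.5 FPKM in KA input, 59.5 to 78.6 FPKM in AAV control input and 55.8 to 63.1 FPKM in PBS input, and to 8.14 to 12.2 FPKM in KA IP, 16.3 to 25.7 FPKM in AAV control IP and 9.92 to 28.3 FPKM in PBS IP. Choroid plexus and ependymal markers summed to 2517 to 4507 FPKM in KA input, 42.5 to 308 FPKM in PBS input and 2999.7, 2129 and 46.5 FPKM in AAV control input #1 to #3, and Hspb1 in AAV control input #3 lay between #1 and #2. Reactive astrocyte markers summed to 509.8 to 559 FPKM in KA input and 36.6 to 65.1 FPKM in the control inputs. The part of these cell types in the Hspb1 values was not tested.

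Cryab, which encodes αB-crystallin, was the most abundant of the small heat shock protein genes in all 6 groups. It measured 553, 452 and 388 FPKM in KA IP, 135, 129 and 163 FPKM in PBS IP and 147, 136 and 306 FPKM in AAV control IP. Every KA IP library was above every control IP library, and AAV control #3 stood above the other 5 controls. Cryab rose by 1.71 ± 0.22 on the log2 scale in KA against PBS IP (adjusted p = 0.000374), a comparison that holds the KA IP libraries on which the family was selected. In input, Cryab was 138, 117 and 122 FPKM in KA, 62.3, 80.7 and 72.9 FPKM in PBS and 62.4, 55.7 and 104 FPKM in AAV control. The log2 differences in input were 0.80 ± 0.12 against PBS (adjusted p = 0.000728) and 0.74 ± 0.27 against AAV control (adjusted p = 0.202), both under the fold needed for a call, which was a log2 change of 1. With same-numbered KA and AAV control samples as a block, the difference from AAV control was 0.82 ± 0.18 (adjusted p = 0.0255), still under that fold. Without AAV control #3 it was 1.15 (adjusted p = 0.000617).

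Oligodendrocyte markers, like Cryab, were higher in the KA IP libraries than in the control IP libraries. The 10 oligodendrocyte markers, among them Mbp and Mog, which encode myelin proteins, summed to 2833, 1959.6 and 1449.7 FPKM in KA IP #1 to #3, 277, 368 and 1194 FPKM in AAV control IP and 413, 302 and 639 FPKM in PBS IP. The order of the 3 KA libraries was the same for Cryab and for the marker sum, and AAV control #3 was the highest control in both. Neither trait was particular to this pair. Hspb1, Hspb6 and Hspb8 and the microglia, endothelial and choroid plexus sums had the same order in KA IP. Astrocyte, reactive astrocyte and neuron sums had other orders. AAV control #3 was also the highest control for Hspb6. All 10 markers rose in KA against PBS IP, with a median log2 change of 2.18 beside a median of -0.01 over all 9847 genes tested, and none was at 0. In input none of the 10 was called against PBS by edgeR, DESeq2 or limma-voom, with 5 at an unadjusted p under 0.05, and the sums were 821 to 1057 FPKM in KA and 612 to 783 FPKM in PBS. The part of oligodendrocyte RNA in the Cryab values was not tested.

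**Figure D2:**
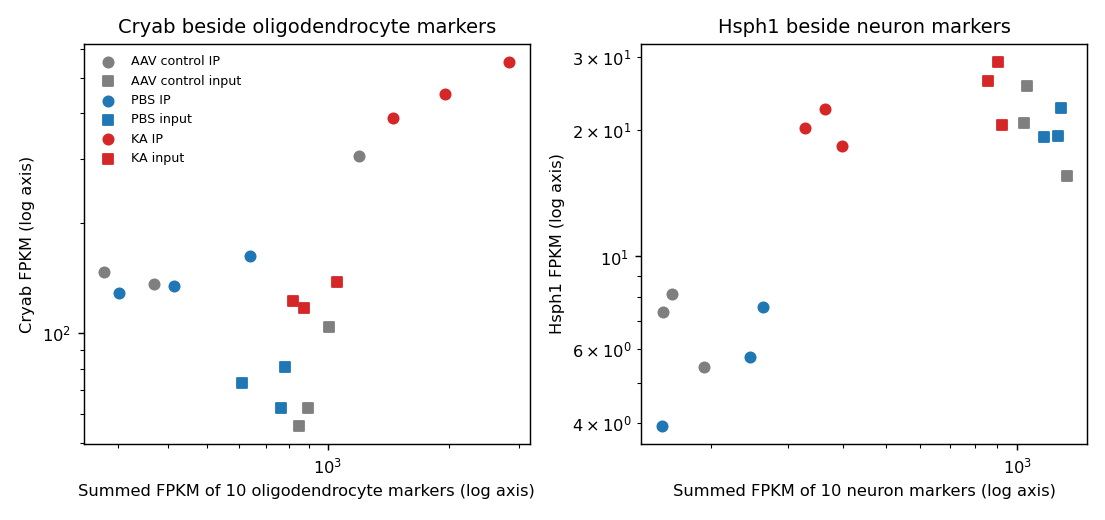
Left, Cryab FPKM against the summed FPKM of 10 oligodendrocyte markers, and right, Hsph1 FPKM against the summed FPKM of 10 neuron markers, 1 point a library, both axes logarithmic, with circles for IP and squares for input. The KA IP libraries hold the highest oligodendrocyte sums (1449.7 to 2833 FPKM) with the highest Cryab, and in the right panel they lie at 327 to 397 FPKM of neuron markers, between the other IP libraries and the inputs.

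Hspb6, which encodes HSP20, rose in both fractions. Its FPKM was 44.1, 40.5 and 37.9 in KA IP, 7.28, 5.98 and 5.72 in PBS IP and 5.54, 5.05 and 11.7 in AAV control IP. In input it was 11.6, 12 and 9.43 in KA, 1.21, 1.21 and 1.75 in PBS and 1.47, 1.69 and 3.15 in AAV control. KA did not overlap either control in either fraction, the controls overlapped each other, and AAV control #3 was again the highest control. The log2 change was 2.68 ± 0.19 in IP against PBS (adjusted p = 8.92e-06), 2.97 ± 0.17 in input against PBS (adjusted p = 6.71e-07) and 2.33 ± 0.31 in input against AAV control (adjusted p = 0.00607). Within run 1 the KA to AAV control input ratio was 7.48 and within run 2 it was 3.00.

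Hspb8, whose product acts with BAG3, had the highest ratio of IP to input in the control groups and was not called against a control in either fraction. It measured 51.9, 51.2 and 40.7 FPKM in KA IP, 49.3, 53.3 and 36.4 FPKM in PBS IP and 68.3, 56.8 and 52.4 FPKM in AAV control IP. KA IP overlapped PBS IP, with a log2 difference of 0.02 ± 0.22 (adjusted p = 0.95). In input every KA library, at 12.9, 13.7 and 9.81 FPKM, was above the controls, which lay between 6.53 and 8.86 FPKM. Those log2 differences, 0.76 ± 0.14 against PBS (adjusted p = 0.00246) and 0.69 ± 0.16 against AAV control (adjusted p = 0.0573), were under the fold needed for a call. With same-numbered KA and AAV control samples as a block, the latter was 0.69 ± 0.16 (adjusted p = 0.0295), still under that fold.

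Bag3, the partner of Hspb8, rose against PBS in both fractions. It measured 15, 15.2 and 10.9 FPKM in KA IP, 4.24, 4.85 and 4.46 FPKM in PBS IP and 6.31, 7.88 and 3.38 FPKM in AAV control IP. In input it was 5.54, 5.98 and 5.05 FPKM in KA, 1.05, 1.31 and 1.88 FPKM in PBS and 2.74, 3.31 and 1.05 FPKM in AAV control. All KA libraries were above all controls of the same fraction, and AAV control #3 was the lowest of its group in both fractions, the opposite of its place for Cryab and Hspb6. Bag3 rose by 1.58 ± 0.19 against PBS in IP (adjusted p = 0.000277) and by 1.96 ± 0.20 in input (adjusted p = 5.68e-05). Against AAV control input the log2 difference was 1.26 ± 0.33 (adjusted p = 0.0831). With same-numbered KA and AAV control samples as a block it was 1.33 ± 0.28 and passed (adjusted p = 0.0193). With sequencing run as a covariate it was 1.32 ± 0.26 and passed (adjusted p = 0.00847). Without AAV control #3 it was 0.92 ± 0.17 (adjusted p = 0.0085), under the fold needed for a call. Within run 1 the ratio of means was 1.91 and within run 2 it was 4.79.

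The make-up of the 4 small heat shock protein genes shifted as their sum grew. Their summed level was 938 ± 181 FPKM (SD, n = 3) in KA IP, 196 ± 9.67 FPKM in PBS IP and 265 ± 93.9 FPKM in AAV control IP. Of this sum Hspb1 made up 40.7% ± 3.9 in KA IP, 0.583% ± 0.467 in PBS IP and 0.896% ± 0.412 in AAV control IP. Cryab made up 49.7% ± 3.4 in KA IP and 72.3% ± 5.5 in PBS IP, and Hspb8 5.15% ± 0.38 and 23.8% ± 5.5, while the level of Hspb8 itself overlapped between these groups. In input the share of Hspb1 was 19.7% ± 2.9 in KA, 5.54% ± 0.44 in PBS and 5.60% ± 1.67 in AAV control. These shares are a description, since they hold the Hspb1 values that chose the family.

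**Figure D3:**
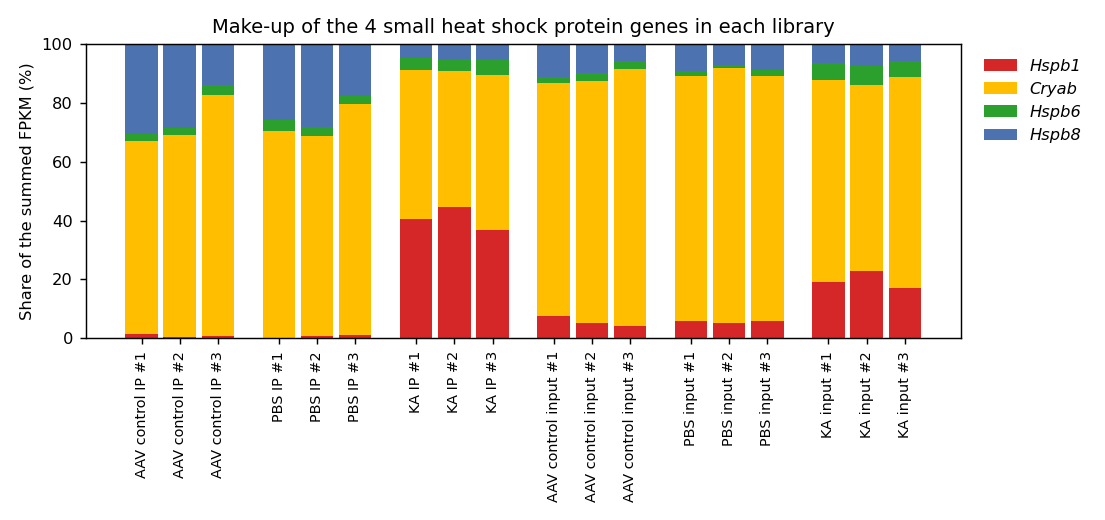
Share (%) of Hspb1, Cryab, Hspb6 and Hspb8 in their summed FPKM, 1 bar a library. Hspb1 takes 36.9% to 44.7% of the sum in the 3 KA IP libraries and at most 1.36% in the 6 control IP libraries.

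Hspa1a and Hspa1b, the stress-inducible HSP70 genes, stayed under 1.2 FPKM in every IP library. Hspa1a had 14 to 16 counts in KA IP, 4 to 7 in PBS IP and 4 to 8 in AAV control IP, or 0.484, 0.453 and 0.430 FPKM in KA, 0.126, 0.207 and 0.128 FPKM in PBS and 0.254, 0.282 and 0.105 FPKM in AAV control. Hspa1b had 10, 15 and 35 counts in KA IP, 15, 9 and 13 in PBS IP and 5, 9 and 13 in AAV control IP. The KA libraries lay above the controls for Hspa1a and overlapped them for Hspa1b. Neither passed the filter on low values in a KA comparison, and the fit without the filter gave log2 differences from PBS IP of 1.74 ± 0.64 for Hspa1a (adjusted p = 0.0367) and 1.16 ± 0.52 for Hspa1b (adjusted p = 0.106). With the counts of both genes summed, which removes the effect of a split of shared reads between them but not of reads that were discarded, the difference was 1.18 ± 0.37 (adjusted p = 0.0278). In input the summed difference was -0.38 ± 0.27 against PBS (adjusted p = 0.326) and -0.41 ± 0.27 against AAV control (adjusted p = 0.502), and input levels ran from 0.364 to 1.23 FPKM for Hspa1a and from 0.832 to 2.19 FPKM for Hspa1b. In the KA IP libraries, where Hspb1 was at 273 to 443 FPKM, neither gene was listed above 1.14 FPKM. These levels would be too low if reads shared by both genes were discarded. The same holds for Hspa1a if reads in its overlap with Gm20481 were discarded. The sources used here do not say whether either was done.

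Dnajb1, the HSP40 partner of HSP70, was not called in any comparison of KA with a control. It measured 4.79, 4.52 and 4.67 FPKM in KA IP, 4.73, 4.34 and 5.11 FPKM in PBS IP and 2.63, 3.17 and 4.97 FPKM in AAV control IP, with overlap among all 3 groups. The difference from PBS IP was -0.01 ± 0.18 on the log2 scale (adjusted p = 0.965). In input the KA libraries, at 7.15, 7.14 and 8.23 FPKM, were all under the PBS libraries, at 9.63, 10.9 and 12 FPKM, a log2 difference of -0.53 ± 0.12 (adjusted p = 0.0104) that was smaller than the fold needed for a call. Against AAV control input, at 8.28, 7.35 and 10.1 FPKM, the difference was -0.20 ± 0.20 (adjusted p = 0.686).

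Hsph1, an HSP110 gene, rose in IP and was not called in input. It measured 20.2, 22.5 and 18.3 FPKM in KA IP, 5.76, 3.94 and 7.59 FPKM in PBS IP and 7.36, 8.13 and 5.44 FPKM in AAV control IP, with every KA library above every control. In input it was 26.3, 29.1 and 20.6 FPKM in KA, 19.3, 19.4 and 22.6 FPKM in PBS and 25.5, 20.8 and 15.5 FPKM in AAV control, and the 3 groups overlapped. The rise in IP against PBS was 1.85 ± 0.20 (adjusted p = 0.000127), and the differences in input were 0.29 ± 0.11 against PBS (adjusted p = 0.0719) and 0.30 ± 0.18 against AAV control (adjusted p = 0.429). Neuron markers were also higher in KA IP than in the control IP libraries. Their summed level was 327, 365 and 397 FPKM in KA IP, 245, 154 and 263 FPKM in PBS IP and 155, 163 and 193 FPKM in AAV control IP. In the inputs it was 858 to 1300 FPKM. In KA IP and in AAV control IP, #3 had the highest neuron sum and the lowest Hsph1. Only in PBS IP was the order of the libraries the same for both. In KA against PBS IP 2 of 10 neuron markers rose, with a median log2 change of 0.57, and none was at 0. Their part in the Hsph1 values was not tested.

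Counted over the members, 5 of the 7 tested were called higher in KA against AAV control IP (Hspb1, Cryab, Hspb6, Bag3 and Hsph1), where 6.39% of 9729 genes were, and 3 without KA #1 or without KA #2. Nothing is read from this count since that comparison chose the family. In KA against PBS IP 4 of the 6 tested rose (Cryab, Hspb6, Bag3 and Hsph1), where 8.08% of 9847 genes did. The same 4 had every KA IP library above every PBS IP library, where 22.7% of the genes tested did, and Hspb8 and Dnajb1 overlapped. The other 3 members failed the filter on low values, so that share does not apply to them. Of these Hspb1, whose KA IP values were part of the selection, and Hspa1a lay above PBS IP, and Hspa1b overlapped. In input 3 of the 7 tested rose against PBS (Hspb1, Hspb6 and Bag3), with 4.26% of 10849 genes, and 2 of 7 against AAV control (Hspb1 and Hspb6), with 2.52% of 10809 genes. In input the same 5 members, Hspb1, Cryab, Hspb6, Hspb8 and Bag3, had every KA library above every control library in both comparisons, which share the KA libraries, where 18.4% of genes had this against PBS and 12.2% against AAV control. Genes that failed the filter on low values in 1 group had no test, so these counts are not over the whole family.

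**Figure D4:**
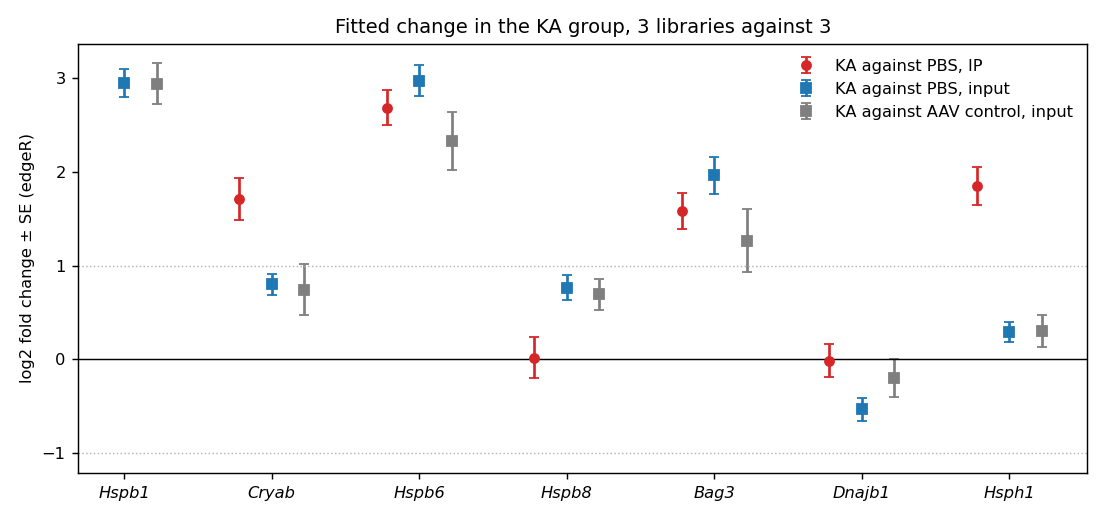
Fitted log2 fold change ± SE of KA against PBS in IP and in input and of KA against AAV control in input, 3 libraries against 3, with dotted lines at the size needed for a call. Hspb6 and Bag3 are higher in both fractions, Hsph1 is at 1.85 in IP and 0.29 in input, and Hspb8 and Dnajb1 are near 0 in IP. Hspb1 has no fitted IP value against PBS because of the filter on low values.

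Between PBS and AAV control, both without KA, no difference was detected in any member that was tested, nor in any other gene. In IP 0 of 6 members were called, beside 0% of 10667 genes, and in input 0 of 8, beside 0% of 10924 genes. Without the adjustment, p was under 0.05 for 0 members in either fraction and for 1153 genes in IP and 901 in input, and DESeq2 called 16 and 14 genes with no member among them. The members' log2 differences ran from -0.47 to 0.41 in IP and from -0.69 to 0.35 in input. With no gene called, these fits do not set the members apart from other genes. Without AAV control #3, 546 genes were called in IP and 365 in input, and Bag3 was called lower in PBS input (-1.03, adjusted p = 0.00462). In those fits Dnajb1 was at 0.80 in IP (adjusted p = 0.0436) and 0.55 in input (adjusted p = 0.00114). Cryab was at 0.36 in input (adjusted p = 0.0111), and these values were under the fold needed.

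Within each homogenate, IP was compared with its own input, and in control mice the members fell into 2 sets. In all 3 pairs of both control groups Cryab, Hspb6, Hspb8 and Bag3 were above 1, and Hspb1, Hspa1a, Hspa1b, Dnajb1 and Hsph1 were below 1. The mean ratio of FPKM was highest for Hspb8, at 7.91 ± 0.43 (SD, n = 3) in AAV control and 6.69 ± 1.84 in PBS. It was 3.50 ± 0.43 and 4.73 ± 1.38 for Hspb6, 2.63 ± 0.50 and 3.38 ± 0.88 for Bag3 and 2.58 ± 0.31 and 2.0 ± 0.35 for Cryab. Neighbours in this order overlapped in their 3 pairs, other than Hspb8 and Hspb6 in AAV control and Bag3 and Cryab in PBS. At the lower end Hspb1 was at 0.472 ± 0.141 and 0.239 ± 0.190, Dnajb1 at 0.413 ± 0.088 and 0.439 ± 0.047 and Hsph1 at 0.343 ± 0.051 and 0.279 ± 0.069.

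The fit placed the tested members in the same sets. In AAV control 4 of 7 members were called higher in IP, led by Hspb8 (log2 3.13 ± 0.18, adjusted p = 0.000102), where 13.3% of 9961 genes were, and 2 lower (Hsph1 at -1.41 ± 0.20 and Dnajb1 at -1.09 ± 0.32), where 13.1% were. Without AAV control #1 only 2 members were called there and without #2 only 3, with Cryab, Bag3 and Dnajb1 no longer called in either case, and Hspb6 without #1. In PBS the same 4 of 6 were higher, with 14.8% of 10401 genes, and the same 2 lower, with 12.3%. Hspb1 was at -0.85 ± 0.42 in AAV control (adjusted p = 0.153). With IP and input of 1 homogenate as pairs it was at -0.89 ± 0.26 there (adjusted p = 0.0177), under the fold needed. The fit without the filter on low values called Hspb1 lower in PBS IP (-2.09, adjusted p = 6.57e-07). Summed, Hspa1a and Hspa1b were lower in IP by -2.22 ± 0.24 in AAV control (adjusted p = 0.000349) and -2.23 ± 0.28 in PBS (adjusted p = 3.04e-05).

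In KA mice Hspb1 joined the set above 1 and Hsph1 came close to 1. The ratio of Hspb1 was 11.4, 10.4 and 9.33 in KA #1 to #3, a value that was part of the selection. Hspb8 had ratios of 4.02, 3.75 and 4.15, all under its 3 AAV control ratios of 7.71, 8.4 and 7.61 and under its 3 PBS ratios of 7.26, 8.17 and 4.63. Cryab was at 3.99, 3.86 and 3.17, above all 6 control ratios. Hsph1 was at 0.770, 0.772 and 0.892, also above all 6 control ratios, of which the highest was 0.39. Hspa1a and Hspa1b passed 1 in KA #3 alone, at 1.18 and 1.05. In the fit Cryab, Hspb6, Hspb8 and Bag3, 4 of the 6 tested members besides Hspb1, were called higher in KA IP than in KA input, where 8.11% of 10098 genes were, and none lower, where 4.51% were. The log2 value of Hspb1, 3.60, was part of the selection and is given with no test. Hsph1, at -0.09 ± 0.13 (adjusted p = 0.631), and Dnajb1, at -0.47 ± 0.15 (adjusted p = 0.0441), were under the fold needed. Scaled by library totals instead of TMM, the median of all genes in this comparison shifted from 0.01 to -0.22 and the calls from 819 higher and 455 lower to 575 higher and 833 lower, and the number of members called did not change.

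**Figure D5:**
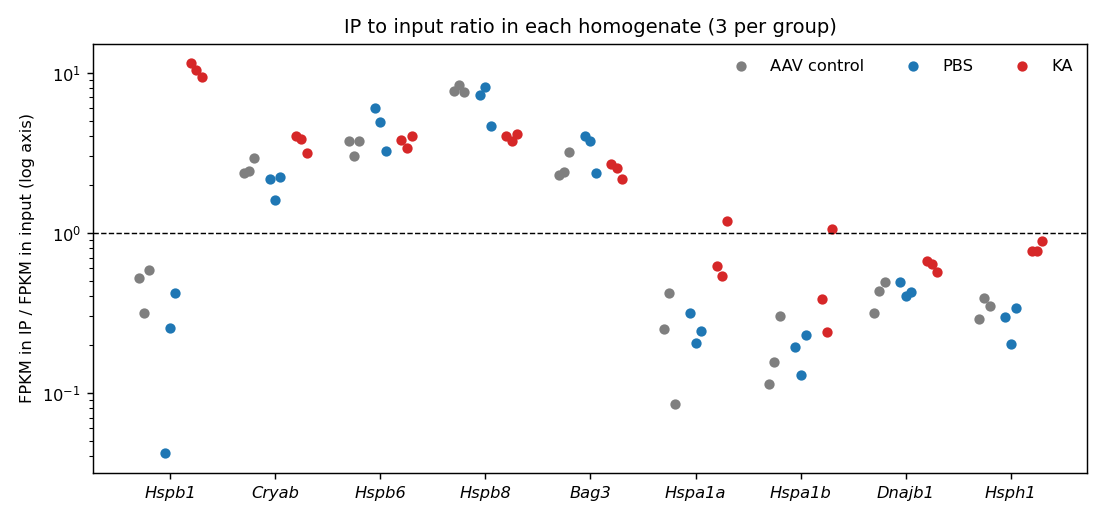
FPKM of the IP library divided by that of the input library of the same homogenate (log axis, dashed line at 1), 3 homogenates a group. Hspb8 is lower and Hsph1 higher in all 3 KA homogenates than in all 6 control homogenates, and Hspb1 moves from below 1 to between 9.33 and 11.4.

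Whether the KA difference was unequal in IP and input was tested directly, as the interaction of group and fraction with PBS as baseline. Of 6 members tested 1 was called higher, Hsph1, by 1.55 ± 0.22 (adjusted p = 0.000371), where 4.98% of 9305 genes were called higher and 8.88% lower. Cryab was at 0.90 ± 0.21 (adjusted p = 0.00801), under the fold needed, and without KA #3 it was at 1.02 and called. The estimate for Hspb8 was -0.76 ± 0.27 (adjusted p = 0.0548). Dnajb1 was at 0.51 ± 0.19 (adjusted p = 0.0679). With IP and input of 1 homogenate as pairs, Hspb8 was at -0.71 ± 0.23 (adjusted p = 0.0301) and Dnajb1 at 0.52 ± 0.17 (adjusted p = 0.0335), both still under the fold needed. For Hspb6 (-0.30 ± 0.23, adjusted p = 0.363) and Bag3 (-0.39 ± 0.26, adjusted p = 0.290) no difference between the fractions was detectable. The summed counts of Hspa1a and Hspa1b gave 1.55 ± 0.48 (adjusted p = 0.0291). With AAV control as baseline, which holds the comparison that chose the family, the values were 4.44 for Hspb1, 1.32 for Hsph1, 0.51 for Cryab and -0.93 for Hspb8, with Hspb1 and Hsph1 past the threshold, where 5.1% of 9180 genes were, and nothing is read from this.

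Other chaperone genes were compared as lists. Of 68 genes in 8 lists of cytosolic and mitochondrial chaperones, co-chaperones and heat shock factors, 56 were tested in KA against PBS IP, and 3 rose and 1 fell, shares no higher than the 8.08% and 9.34% of all genes tested. The 3 were the HSP40 genes Dnajb6 (1.07 ± 0.18, adjusted p = 0.00155) and Dnaja4 (1.02 ± 0.24, adjusted p = 0.0087) and Hspbp1, which encodes an exchange factor of HSP70 (1.18 ± 0.18, adjusted p = 0.00108). Dnajb6 in KA IP, at 24.9, 23.5 and 16 FPKM, overlapped AAV control IP, at 18.2, 17.7 and 10.7 FPKM. The other 2 genes did not overlap it. Hspbp1 was at 57.2, 49 and 38.1 FPKM in KA IP and 37.7, 33.2 and 27.8 FPKM in AAV control IP. For Dnaja4 these levels were 4.60, 3.64 and 3.81 FPKM and 2.34, 2.36 and 2.31 FPKM. The median over the 56 was 0.45, and 46 had a positive sign. Hsf1 itself fell by 1.27 on the log2 scale (adjusted p = 0.00302), with 1.37 to 1.84 FPKM in KA IP, 2.87 to 4.58 FPKM in PBS IP and 1.90 to 3.25 FPKM in AAV control IP. None of the 3 HSP90 genes, the 7 other HSP70 and HSP110 genes tested or the 8 subunits of the chaperonin TRiC was called by edgeR, DESeq2 or limma-voom, with 2, 5 and 5 at an unadjusted p under 0.05. Some lay just under the fold needed: log2 changes ran from -0.30 to 0.98 for HSP90 and from -0.66 to 0.98 for the HSP70 and HSP110 list. Hsp90aa1 was at 436 to 452 FPKM in KA IP and 207 to 253 FPKM in PBS IP. For Hsp90ab1 these ranges were 532 to 803 and 335 to 362 FPKM, and for Hspa8 182 to 226 and 87.9 to 113 FPKM.

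In input 1 of 58 genes of these lists rose against PBS, and 0 of 57 against AAV control, by edgeR, DESeq2 or limma-voom, with 5 at an unadjusted p under 0.05. The 1 was Hspb3, a further small heat shock protein gene, at 17.4, 15.1 and 15.8 FPKM in KA input and 1.91, 1.43 and 1.13 FPKM in PBS input (3.41 ± 0.25, adjusted p = 5.43e-06). In IP Hspb3 was at 15, 15.4 and 23.1 FPKM in KA, 0.879, 0.112 and 0.976 FPKM in PBS and 0, 0.67 and 0.70 FPKM in AAV control, too low in the controls to pass the filter. Its KA libraries thus lay above all controls in both fractions, as for Hspb1, Cryab, Hspb6 and Bag3. Hspb2, the neighbour of Cryab, stayed at or under 2.25 FPKM in every library.

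Chaperones of the endoplasmic reticulum were a separate list, of which 3 of 16 tested rose in KA against PBS IP, where 8.08% of all genes did. These were Manf (1.63 ± 0.21, adjusted p = 0.000404), Sdf2l1 (1.33 ± 0.18, adjusted p = 0.000468) and Hspa5 (1.25 ± 0.19, adjusted p = 0.000917), which encodes BiP, the HSP70 protein of that compartment. The list's median was 0.72, and 14 of 16 were positive. In input 1 of 17 rose against PBS, Manf (1.07 ± 0.15, adjusted p = 0.000507), and 1 of 17 against AAV control, Sdf2l1 (1.17 ± 0.20, adjusted p = 0.0168), where 4.26% and 2.52% of all genes did. Manf in KA overlapped AAV control in both fractions. It was at 41.4, 37.8 and 22.9 FPKM in KA IP and 29.8, 25.1 and 12.1 FPKM in AAV control IP. In input it was at 28.2, 25.6 and 16.6 FPKM in KA, 23.3, 22.1 and 11.3 FPKM in AAV control and 9.86, 10.7 and 12.6 FPKM in PBS. For PBS the sequencing run and the group cannot be told apart. Of the partners of BAG3 in autophagy, 0 of 7 were called in IP against PBS by edgeR, DESeq2 or limma-voom, with 4 at an unadjusted p under 0.05, and Lamp2, a lysosomal membrane gene, rose in input against PBS (1.25 ± 0.11, adjusted p = 3.03e-05) and against AAV control (1.09 ± 0.14, adjusted p = 0.00607). Microglia markers moved in the same inputs: 9 of 9 tested rose against either control, and their sum was 1689 to 2646 FPKM in KA input and 133 to 305 FPKM in all control inputs. Their part in the input values of the chaperone genes was not tested.

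Among the other chaperones the KA change was also compared between the fractions. In the interaction with PBS as baseline 6 of the 56 cytosolic and mitochondrial genes tested were higher and 1 lower, and 48 were positive, with a median of 0.33. Over all 9305 genes tested 4.98% were called higher and 8.88% lower, and the median was -0.07. Named after their values were seen, the 6 were Hsp90ab1 (1.49 ± 0.34), Hsp90aa1 (1.25 ± 0.28), Hspa8 (1.19 ± 0.31), Dnaja4 (1.14 ± 0.29), Bag5 (1.05 ± 0.18) and Hspbp1 (1.03 ± 0.23), with adjusted p from 0.00132 to 0.0143. The 1 that was lower was Hsf1 (-1.04 ± 0.29, adjusted p = 0.02). In the same contrast 4 of 10 neuron markers and 10 of 10 oligodendrocyte markers were higher, and 6 of 10 astrocyte markers and 6 of 6 microglia markers lower. With AAV control as baseline 1 of the 56 chaperone genes tested was called higher and 0 lower, where 5.1% of 9180 genes were called higher. There 45 of the 56 were positive, with a median of 0.29.

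Immediate early genes, which neurons and glia switch on after activity or injury, were compared as a second list of inducible genes. In KA against PBS IP 7 of 11 tested rose, among them Fos (3.08 ± 0.24) and Junb (2.54 ± 0.18), and in input 3 of 12 rose against PBS, where 8.08% and 4.26% of all genes did. The summed level of the list was 248 to 277 FPKM in KA IP and 68.2 to 116 FPKM in the 6 control IP libraries, with no overlap.

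The genes with the pattern most like each of 4 members were ranked by Pearson's r of log2(FPKM + 1) over the 18 libraries, which share groups, runs and homogenates, among 15731 genes. For Hspb1 they were Igfbp7 (r = 0.99), Hpgd (0.98), Cela1 (0.97), Tnfrsf12a (0.97) and Mymk (0.97). For Cryab they were Mfsd2a (0.97), Cyb5r3 (0.97), Fas (0.97), Ddr1 (0.96) and Ccdc3 (0.96), and for Hsph1 Cbarp, Gm49593, Neurod1, Homer1 and Mcu, all at 0.98. For Hspa1a, whose values rest on few counts, the highest was Prr7 at 0.90. No gene appeared in more than 1 of these short lists.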

How the data were processed

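RNA of the right hippocampus was sequenced on an Illumina NovaSeq after ribosome affinity purification (IP) and from the same homogenates (input). The submitters' processing notes name STAR, featureCounts, edgeR and mm10. Tool versions, annotation, strand setting and handling of multi-mapping reads are not given in the sources used here. The authors deposited for each library whole-number counts per gene symbol, not normalized, and FPKM values per gene. All 18 libraries were used, with groups taken from the labels.

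Counts were tested with edgeR 4.0.16 in R 4.3.3 (quasi-likelihood, TMM normalization, Benjamini-Hochberg adjustment over all genes tested). Genes needed FPKM above 1 in every library of a comparison, except the summed counts of Hspa1a and Hspa1b, which were added to the genes tested whatever their levels. A gene was called at an adjusted p under 0.05 with a log2 change of 1 or more in either direction, and the SE is the absolute log2 change divided by the square root of F. The procedure was tested on simulated data. Alternatives used DESeq2 1.42.0, limma-voom (limma 3.58.1), RLE factors, other filters, sequencing run as a covariate, a replicate block and the removal of single libraries, and library totals without TMM, which were added after the data were seen. With 3 samples a group the exact permutation test cannot give a p under 0.1. The members and gene lists were chosen with earlier results of these data known. Named genes were the members, genes of the chaperone lists called in KA against PBS IP or in either input comparison (at most 10 each), and the 5 genes most like Hspb1, Cryab, Hspa1a and Hsph1. Replicates are pools of mice, and p-values measure the spread between pools.

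Each IP library shares its homogenate with the input library of that number, and their residuals after removal of group means correlated at 0.155 to 0.752 over 9001 genes. KA and AAV control samples of the same number correlated at 0.349 to 0.552 and share a sequencing run, so these numbers pair samples. Between KA and PBS the values were -0.294 to 0.106, so the numbers do not pair samples. No pair of libraries of a group differed by as little as counting noise. Promoters and motifs came from RefSeq windows, and locations from GENCODE M21, in which 53292 of 55291 symbols matched. No column of the files was left out of use.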

Additional observations from a re-analysis of the deposited data

Results flagged for a closer look

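3 results met the rule that a KA effect differed between IP and input by a test of the difference itself, all against PBS. Hsph1 had a KA effect larger in IP than in input by 1.55 on the log2 scale (adjusted p = 0.000371), with all 3 KA homogenates at an IP to input ratio above all 3 PBS homogenates. Cryab had a difference of 0.90 (adjusted p = 0.00801), with all 3 KA homogenates above all 3 PBS homogenates, and it was under the fold used for calls. The summed counts of Hspa1a and Hspa1b had a difference of 1.55 (adjusted p = 0.0291), from 26 to 49 summed counts a library in KA IP, and was added to the test although neither gene passed the filter on low values. Groups of 3 samples were not searched for single samples that stand apart.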

How the results depend on the processing

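Over DESeq2, limma-voom, RLE factors, library totals, 2 other filters, run as a covariate, the block and single libraries left out, 129 counts of called members were within 1.5 times the count given and 9 were not. Among log2 values of members, 727 kept direction and side of the threshold, 12 passed it newly, 10 no longer passed it, 7 changed sign and 3 untested values moved by more than the spread of replicates. With 1 library left out, called members ranged from 3 to 5 in KA against AAV control IP (3 without KA #1 or KA #2), 0 to 1 in PBS against AAV control input (Bag3 without AAV control #3), 2 to 6 in IP against input of AAV control, and 1 to 2 in the interaction with PBS as baseline (Cryab without KA #3, Hspb1 without PBS #1). That interaction had 4 called members with no filter on low values and 3 with edgeR's filterByExpr, which added Cryab and Hspb1 in both cases and Hspa1b with no filter. Dnajb1 in KA against PBS IP, never called, was at 0.19 with no filter, 0.14 with filterByExpr and -0.067 to 0.0451 with 1 library left out. Hspb8 there ranged from -0.18 (without PBS #3) to 0.22, and Dnajb1 in KA against AAV control input from -0.33 to 0.0095 (without AAV control #3). The cause of these changes was not tested.

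With the replicate number as a block, which matches samples by homogenate or by run, Bag3 in KA against AAV control input was called at 1.33. This made 3 members instead of 2, and no other member's call changed. The block gave 368 called genes there against 292 without it. Counts of called genes over all settings ranged from 133 to 1169 there, from 1464 to 5023 around 1716 in KA against PBS IP, from 471 to 1973 around 580 in KA against PBS input, from 779 to 2823 around 1130 in KA against AAV control IP, from 1647 to 4965 around 2626, 2754 to 5736 around 2818 and 1047 to 3146 around 1274 in IP against input of AAV control, PBS and KA, and from 1050 to 2635 around 1289 and 483 to 1693 around 865 in the interactions with PBS and AAV control as baseline. They reached 546 in IP and 365 in input for PBS against AAV control. With library totals the median shifted from 0.01 to -0.15 in IP against input of AAV control, with 1100 genes higher and 1580 lower. Levels of Hspa1a under 1 FPKM rest on 4 to 24 counts, and differences of their size could be missed.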
